A study of Arabidopsis thaliana with 2 samples.

Results

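A set of 5 genes of telomere and chromosome replication biology carried SOG1-Myc peaks in Arabidopsis thaliana plants treated with zeocin, and is described here. They are TERT (AT5G16850), TRP1 (AT5G59430), TRFL3 (AT1G17460), TRFL10 (AT5G03780) and RFC1 (AT5G22010). They were selected on being named in the authors' list of called peaks, out of 1513 genes named for 778 peaks, so their having a peak is how they were found and not a result. The 5 genes account for 6 peaks, since TRFL10 is named for a pair.

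The study mapped the chromatin targets of SOG1 (SUPPRESSOR OF GAMMA RESPONSE 1) by ChIP-seq, that is, precipitation of chromatin with an antibody and sequencing of the DNA that comes with it. The treated group is Col-0 carrying a SOG1-Myc fusion driven by the promoter of SOG1, given 15 µM zeocin for 2 h. The comparison library is untagged Col-0 labelled mock, although the treatment text attached to it also speaks of zeocin. In both groups the plants were 2 weeks old, grown in liquid medium and taken whole, and anti-Myc antibody was used. Each group has 1 library, and the peaks are those of the tagged, zeocin-treated one. The mock library itself was not analysed here. The tag and the drug therefore cannot be told apart. A library of whole plants pools all organs, and a low peak in most cells cannot be told apart from a high peak in few. Total depth is unknown, and the 6 peaks hold 580 of the 78249 reads counted inside all peaks. There is no replicate, so the intervals below are exact 95% Poisson intervals that cover counting error only, and reads copied by PCR would make them too narrow.

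Zeocin breaks DNA. SOG1 is a plant NAC transcription factor that is phosphorylated by the kinase ATM once breaks are sensed, and it then switches on genes of repair and of cell cycle arrest. Telomeres are the repeated DNA that caps chromosomes and keeps natural ends from being handled as breaks. Telomerase, whose catalytic protein is TERT, copies the repeat from its own RNA; in Arabidopsis its activity is highest in dividing and reproductive tissue and low in mature leaves. Proteins with a Myb-type domain of the telobox kind, such as TRP1, bind the double-stranded repeat.

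TERT, the reverse transcriptase of telomerase, had a peak of 4.63-fold enrichment over a denominator that the sources used here do not state. It lay at chromosome 5, 5543267 to 5543981 (TAIR10, as all positions here), and held 53 reads (39.7 to 69.3) over 715 bp. By fold enrichment it was number 297 of 778. By the authors' Decibel Score, a score whose formula is not given, it was number 704 with 53.6, and 74 peaks scored lower; the lowest score in the list was 50.01. It had the fewest reads of the 6 peaks, and also the fewest per kb of peak, 74.1 (55.5 to 97.0), at number 760 of the list. The place of this peak thus depends on the measure: the fall of 407 places between fold enrichment and score was matched or exceeded by 47 of the 778 peaks (6.04%), and the median change was 122 places. The authors name AT5G16860, the next gene along the chromosome, for the same peak, and the list does not say to which of these neighbours the peak belongs.

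The double-strand telomere binding genes come next. TRP1, which encodes a protein that binds telomeric repeats, had the lowest fold enrichment of the 6 peaks, 3.72-fold with 73 reads (57.2 to 91.8) over 816 bp at chromosome 5, 23966873 to 23967688. It ranked 579 by fold enrichment and 701 by Decibel Score (53.8). The peak is shared with its neighbour ZEU1 (AT5G59440), which encodes thymidylate kinase, an enzyme that makes the precursor of dTTP for DNA synthesis.

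TRFL3, a relative of TRP1 named for its likeness to the animal telomere proteins TRF, had a peak of 3.99-fold with 93 reads (75.1 to 114) over 969 bp at chromosome 1, 5998334 to 5999302. It was the only one of the 6 peaks outside chromosome 5, and the one with most genes named, 3 in all. The others are DRG1 (AT1G17470), a GTP-binding protein gene, and AT1G17450. The gene table holds 1 protein-coding locus inside this run of neighbours that the authors did not name. TRFL3 ranked 488 by fold enrichment and 499 by score (66.9), but 253 by reads.

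TRFL10, another TRF-like gene, had the strongest peak among the members and the only pair. The first of the pair lay at chromosome 5, 998657 to 999759, with 5.10-fold enrichment, 91 reads (73.3 to 112) over 1102 bp and a Decibel Score of 108. The other lay at 999970 to 1001421, with 8.88-fold enrichment, 165 reads (141 to 192) over 1451 bp and a score of 378. The second peak ranked 35 by fold enrichment and 47 by score, and the first 197 and 220, so both stood in the upper part of the list by either measure. By reads per kb the second ranked 104, but the first only 569. The latter place is loose, since the first peak's 82.6 reads per kb had an interval of 66.5 to 101. That interval spans the quartiles of the list, 82.2 and 99.8.

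The TRFL10 peaks are 210 bp apart, whereas the median gap between neighbouring peaks of the list is 84280 bp. Of all 773 gaps, 11 (1.42%) were as short or shorter. Among the 94 genes with more than one peak the median gap between the first pair was 651 bp, and 16 genes (17.0%), TRFL10 included, had one as short. Neighbours that share a pair of peaks are each counted in this number. Such closeness is thus found at other genes of that kind as well. The second peak held 1.81 times the reads of the first (exact binomial interval 1.40 to 2.37), and 1.38 times as many per kb of peak (1.06 to 1.80). If the summit offset counts from the start of a peak, which the sources used here do not state, the summits are 2011 bp apart and both point away from the gap: the first lies 286 bp from its outer edge and the second 467 bp. The first peak is named for TRFL10 alone. The second is named also for HB51 (AT5G03790, LATE MERISTEM IDENTITY1), a homeodomain gene that acts in the switch to flowering and in leaf shape. Genes with more than 1 peak made up 94 of 1513 named genes (6.21%), and in 9 of them, TRFL10 included, every peak reached 5-fold. Among the others, XRI1, the X-ray induced gene, shares its pair with AT5G48730, AT2G18180 with AT2G18190, and AT3G15200 with ERF4. The rest are WRKY48 and AFP3. Genes that share peaks are each counted in these numbers, so the 9 genes hold fewer than 9 pairs of peaks.

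**Figure D1:**
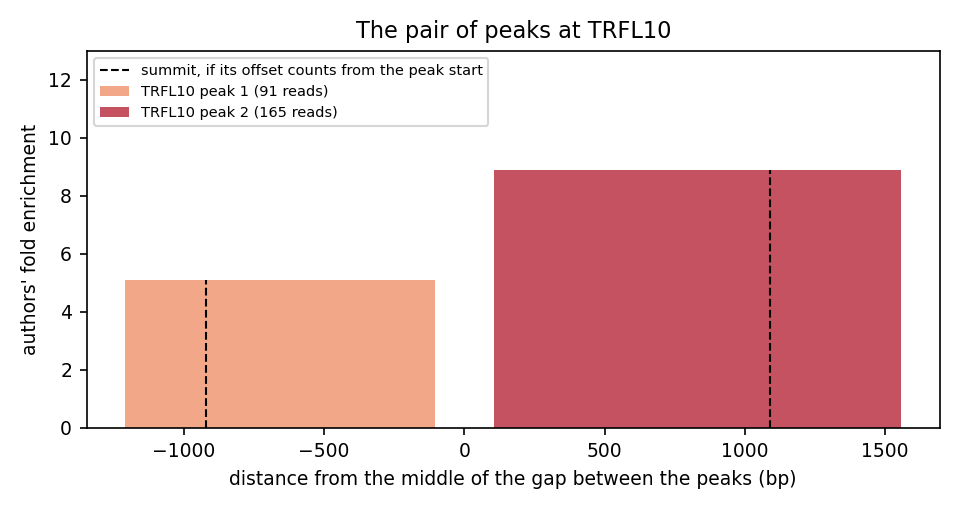
The pair of peaks named for TRFL10, drawn to scale. The x axis is the distance in bp from the middle of the gap of 210 bp, the height is the authors' fold enrichment (5.10 for the left peak and 8.88 for the right one), and the dashed lines mark the summits under the assumption that their offset counts from the peak start, 2011 bp apart.

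RFC1 encodes the large subunit of replication factor C, the clamp loader that sets the sliding clamp PCNA on DNA so that polymerases can copy it. It is a general replication protein, grouped here with the telomere genes because replication also copies chromosome ends. Its peak had 4.43-fold enrichment and 105 reads (85.9 to 127) over 982 bp at chromosome 5, 7286796 to 7287777, and named no other gene. It moved the opposite way to TERT between measures, standing at number 374 by fold enrichment, 185 by Decibel Score (123), 201 by reads and 137 by reads per kb (107, interval 87.5 to 129). RFC1 and the first TRFL10 peak were the 2 of 6 that named a single gene, against a share of 25.6% over the whole list, and 4 of 6 named 2 or more, against 69.9%. These shares are close to those of the list.

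**Figure D2:**
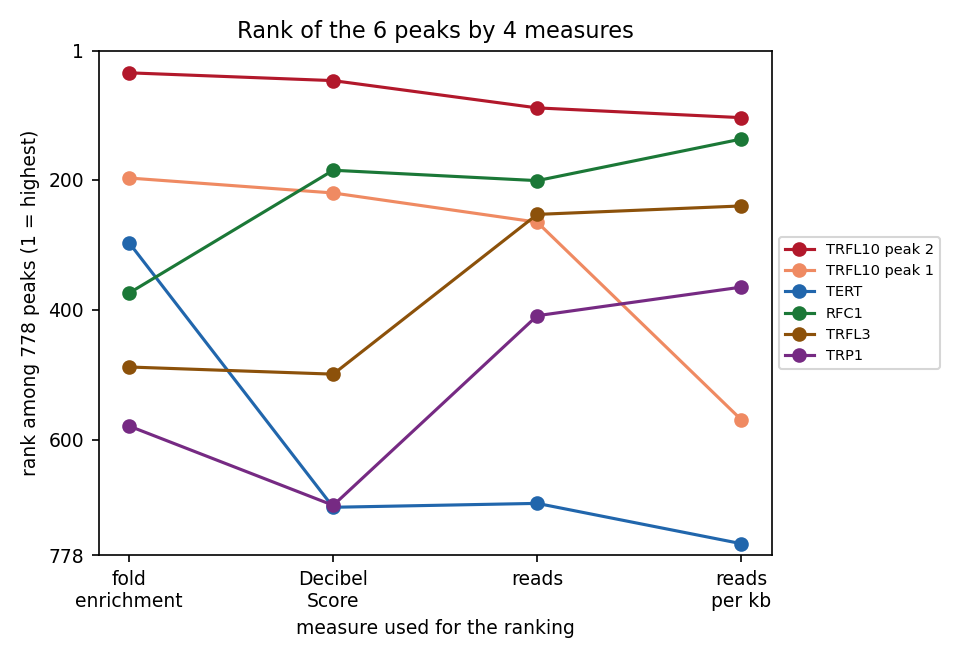
Rank of each of the 6 peaks among the 778 peaks (y axis, 1 at the top) by 4 measures (x axis); each line is 1 peak. The second TRFL10 peak keeps the highest rank of the 6 by each measure (35 to 104), TERT stands at 297 by fold enrichment and at 698 to 760 by the other measures, and RFC1 at 374 and at 137 to 201.

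Among themselves the members ran, by fold enrichment, from the second TRFL10 peak (8.88) through the first (5.10), TERT (4.63), RFC1 (4.43) and TRFL3 (3.99) to TRP1 (3.72). The fold enrichment has no error of its own. It takes 469 distinct values over the 778 peaks, TERT shares its value with 2 further peaks, and the step to the nearest other value was small for each member, for example from 4.63 down to 4.62 for TERT. Per kb of peak, reads ran from 114 (97.0 to 132) at the second TRFL10 peak to 74.1 at TERT, whose interval ends at 97.0. These intervals do not overlap, and no interval was taken for the ratio of these counts. The intervals of RFC1 (107), TRFL3 (96.0), TRP1 (89.5) and the first TRFL10 peak (82.6) overlap with those of their neighbours in the order. Overlap of single intervals does not settle a difference, so no ranking of these 4 by read density is drawn. The median over the 6 peaks was 92.7 reads per kb, and 88.6 over the other 772 peaks.

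By median strength the 6 peaks, 2 of them from TRFL10, lay near the middle of the list. Singly they were spread from number 47 to number 704 by Decibel Score. Their median fold enrichment was 4.53, against 4.32 for the other 772 peaks, and 2 of 6, both at TRFL10, reached 5-fold, which 27.8% of all peaks did. Their median Decibel Score was 87.7, and 77.7 for the others. The authors' false discovery rate ran from 0.135 at RFC1 to 0.191 at the second TRFL10 peak, where the list's median is 0.147. For each of the 6 peaks this rate equals a whole number divided by the peak's rank by Decibel Score. It therefore reads as a running rate over the list down to that rank, not as a rate of the single peak. The higher value at the second TRFL10 peak (number 47 by score) does not make it less sure than TERT (number 704). High rates are found among the strongest peaks of the list. The median was 0.367 in the 10 peaks of highest Decibel Score and 0.185 in the 50 highest, so the column does not order peaks by strength. The lowest rate of any peak in the list is 0.116, so by this column none of the 6 peaks is called at a stringent rate. The median length was 976 bp, and 837 bp for the others. In location, 5 of the 6 peaks lay on chromosome 5, which holds 195 of all 778 peaks (25.1%). The TRFL10 pair, at a single gene, counts as 2 of the 5. Of 40 telomere and clamp genes examined below, 10 lie on that chromosome. No test was made of these values, since the same list chose the members.

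**Figure D3:**
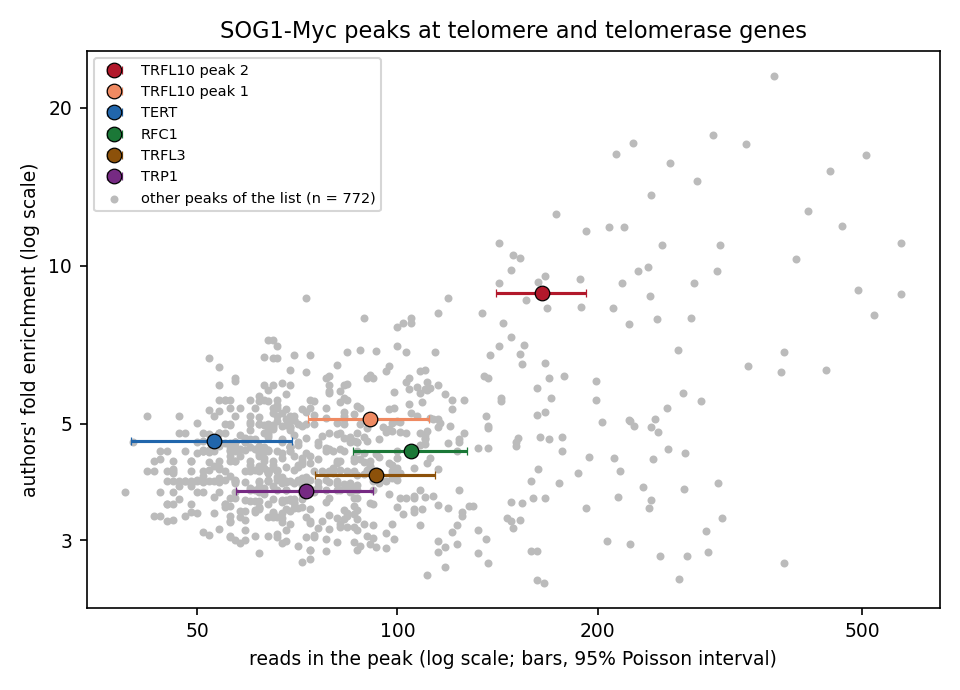
Authors' fold enrichment (y axis, log scale) against reads in the peak (x axis, log scale) for the 6 peaks of the telomere and telomerase genes, in colour with exact 95% Poisson intervals of the reads, and for the other 772 peaks in grey. The second TRFL10 peak (165 reads, 8.88-fold) stands apart from the other coloured points, which lie between 53 and 105 reads and between 3.72-fold and 5.10-fold, inside the dense part of the list.

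The members were set in the wider machinery with 4 lists covering 40 genes that the gene table names. These lists were drawn up with results of the same peaks known and contain the members, so their counts describe and do not test. In all 5 of 40 genes were named for a peak, and these are the members, so the count is fixed by their choice; 4.99% of all protein-coding loci and 3.91% of all nuclear loci were named. The lists as drawn up held 47 loci, of which 7 without a name in the gene table were left out after the values were seen, and with them 6 of 47 were named.

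Of 8 named telomerase genes, TERT had a peak. The telomerase list as drawn up held 10 loci, and 2 of the 10 had one: the other is AT5G67630, which the gene table leaves without a symbol. Its peak, at chromosome 5, 26972357 to 26973106, had 4.99-fold enrichment and 62 reads, above TERT in both, and was shared with AT5G67640. The other 7 genes with a symbol had no peak: NAP57, the dyskerin of the telomerase particle; NOP10 and NAF1, which take part in building particles of that class; POT1a, a telomerase accessory protein, and its relative POT1b; the zinc finger gene TAC1, an activator of telomerase; and RIN1, an ATPase of particle assembly.

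Of 15 genes with a symbol (18 as drawn up) for proteins that bind or are named for binding double-stranded telomeric DNA, 3 were named. The TRFL family, with TRP1 and TBP1 in it, falls into a group whose members carry an extension of the Myb domain and bind telomeric repeats in vitro, and a group that lacks the extension and is not known to bind them. In the group with the extension 1 of 6 was named (TRP1), while TBP1, TRFL1, TRFL2, TRFL4 and TRFL9 were not. In the group without it 2 of 6 were named (TRFL3 and TRFL10), while TRFL5, TRFL6, TRFL7 and TRFL8 were not. This split was made after the values were seen, and TRFL3 and TRFL10 are thus telomere genes by name and family more than by known function. TRB1, TRB2 and TRB3, which encode another kind of Myb-domain telomere protein, were not named, nor were the 3 loci of this list without a symbol.

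Of 9 genes that protect or process chromosome ends, 0 were named, and 0 of the 10 loci as drawn up. The 9 are CTC1, STN1 and TEN1 of the CST complex that guards the single-stranded overhang, KU70 and KU80, which bind DNA ends, MRE11, RAD50 and NBS1 of the complex that senses breaks, and WHY1, a single-strand DNA binding protein. Without the depth of the library, a gene with no peak cannot be told apart from one whose peak was below detection.

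**Figure D4:**
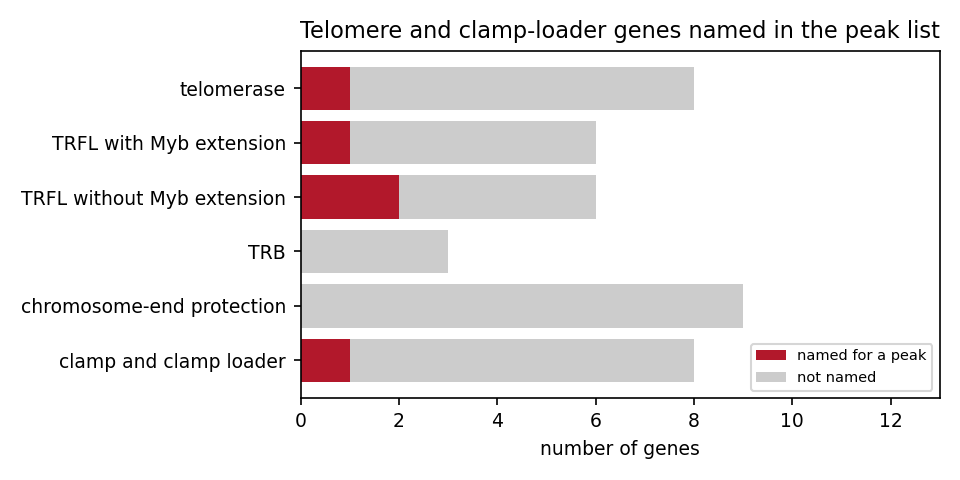
Number of genes (x axis) named for a peak, in red, and not named, in grey, in each group of telomere and clamp genes (y axis). Loci without a symbol in the gene table are left out, among them AT5G67630, a locus of the telomerase list with a peak. Named genes number 1 of 8 for telomerase (2 of 10 with such loci), 1 of 6 and 2 of 6 for the TRFL groups with and without the Myb extension, 0 of 3 for TRB (0 of 5), 0 of 9 for chromosome-end protection and 1 of 8 for the clamp and its loader.

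Of 8 genes of the sliding clamp and its loaders, RFC1 was the one named. The small subunits RFC2, RFC3, RFC4 and RFC5, the alternative large subunit CTF18 and the clamp genes PCNA1 and PCNA2 were not. RAD17, the large subunit of the checkpoint loader that takes the place of RFC1 on the same small subunits, was not in the list of 8 and was added after its values were seen. It had a peak of 13.7-fold with 241 reads over 1220 bp, number 10 by fold enrichment, and that peak names 2 genes. In reads per kb RFC1 stood at 107 (87.5 to 129) and RAD17 at 198 (173 to 224), so the intervals of these loader subunits do not overlap.

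The members were also set beside checkpoint and nucleotide supply genes with peaks in the same library. The checkpoint kinase gene WEE1 had 199 reads per kb (174 to 226) and TSO2, a small subunit of ribonucleotide reductase, 229 (211 to 249), both above the interval of each of the 6 telomere and RFC1 peaks. RNR1, the large subunit of that enzyme, had 134 (115 to 155), whose interval overlaps those of the second TRFL10 peak, RFC1 and TRFL3. CDC45, a helicase factor, had 81.1 (58.7 to 109), within the range of the members. None of these peaks is named for a single gene: the peak of WEE1 names 4, those of TSO2 and CDC45 3 each and that of RNR1 2. These genes were picked with their values known, and the comparison is between peaks of 1 library, not between conditions.

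**Figure D5:**
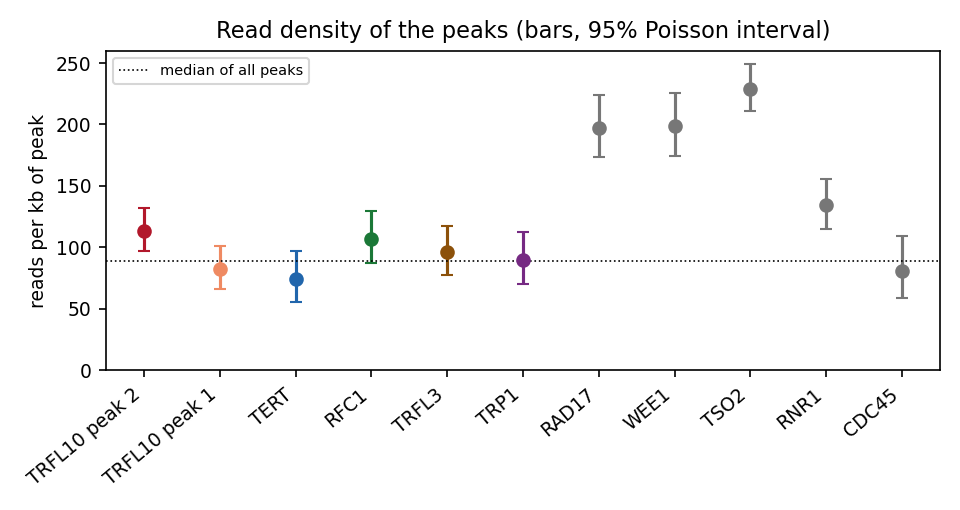
Reads per kb of peak (y axis) with exact 95% Poisson intervals for the 6 peaks of the telomere genes and RFC1, in colour, and for the peaks of RAD17, WEE1, TSO2, RNR1 and CDC45, in grey (x axis); the dotted line is the median of all 778 peaks, 88.6. The coloured points lie between 74.1 and 114, while RAD17, WEE1 and TSO2 lie between 198 and 229.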

How the data were processed

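ChIP DNA of whole plants was sequenced by the authors. CASAVA 1.8.2 and build TAIR10 are named per the submitters' processing notes; which aligner and peak caller were used, against what control and at what threshold, is not stated in these sources. Per the file headers, the authors deposited for each peak a read count (not scaled), a fold enrichment (a ratio of unstated denominator), a score called Decibel Score with no formula given, a false discovery rate (on the scale of a q-value), a length and a summit offset. The 1645 lines, 1 per peak and gene, were collapsed to 778 peaks. The stated length is end minus start for 261 peaks and 1 more for 517, so edges are uncertain by 1 bp. Ranks run from the highest value, ties taking the lowest number. Python 3.11.15, pandas 2.3.3 and SciPy 1.17.1 were used, with exact 95% Poisson and binomial intervals.

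Gene names and neighbours came from a TAIR10.1 gene table, whose positions are not used: 1483 of 1513 named loci matched and 30 did not. Of 47 listed loci, 7 have no name there and were left out, after the values were seen; 1 of them, AT5G67630, stood in the telomerase list and is named for a peak of 4.99-fold. Peaks are not described as exonic or upstream. The named genes are the members, all genes of their peaks and list genes with a peak; other list genes are named as lacking one, and the genes set beside the members were added later. The members and lists were chosen with earlier results of these data known, and no test was run.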

Additional observations from a re-analysis of the deposited data

How the results depend on the processing

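The ranks of single peaks were taken by 3 other measures, giving 18 values, of which 3 stayed within the exact 95% binomial interval of the rank by fold enrichment and 15 moved. That interval serves only as a cut, since a rank in a fixed list is not a binomial count. The median rank of the 6 peaks was 335.5 by fold enrichment, 359.5 by Decibel Score, 259 by reads and 302.5 by reads per kb. Of the 40 list genes, 5 were named over all peaks, 3 (TERT, TRFL10 and RFC1) among the 389 peaks strongest by fold enrichment, 2 (TRFL10 and RFC1) at peaks that name a single gene and 3 (TRP1, TRFL10 and RFC1) when each peak's first line alone was used; fewer loci of any kind are named under each (2.51%, 0.66% and 2.4% of protein-coding loci). With the 7 unnamed loci kept, an alternative chosen after seeing the data, 6 of 47 were named. Among the 389 strongest peaks, likewise an added setting, the TRFL groups with and without the Myb extension had 0 and 1 named genes, against 1 and 2 over all peaks. The share of loci named was 4.99% of protein-coding loci and 3.91% of all nuclear loci. Merging peaks closer than 500 bp, also chosen afterwards, left 5 peaks for the 5 genes, with the TRFL10 pair as 1. The tests of the SOG1 site and its alternatives were not run, for want of a sequence. No paired analysis was possible because each group has 1 library and the list holds 1 of them; leaving out a replicate was likewise impossible. Depth is unknown, and the peaks of TERT and TRP1 lie close to the lowest score listed.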
